A study of Caenorhabditis elegans with 18 samples.

Results

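The heat-shock transcription factor gene hsf-1 and 9 heat-shock protein genes of Caenorhabditis elegans were followed through 6 groups of first-stage (L1) larvae. The genes were taken by their WormBase names: hsf-1, hsp-1, hsp-110, dnj-13, hsp-70, hsp-16.1, hsp-16.2, hsp-16.41, hsp-6 and hsp-60. These 10 names matched 11 of the 46904 rows of the deposited gene table, because 2 near-identical genes of one locus both carry the name hsp-16.1. The second of them is called hsp-16.11 here, as RefSeq (WBcel235) names it.

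HSF-1 is the factor that binds heat-shock elements in the promoters of chaperone genes, and in C. elegans it is also required for larval development without heat shock. The cytosolic chaperones HSP-1 (HSC70), HSP-110 and DNJ-13 are made all the time and fold newly made proteins, while HSP-70 and the small HSP-16 proteins are nearly silent until heat or another insult induces them. HSP-6 and HSP-60 fold proteins in the mitochondrial matrix and are the standard reporters of the mitochondrial unfolded protein response.

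The series holds 18 RNA-seq libraries of whole larvae, with 3 libraries in each group. The groups were raga-1(ok386) mutants, rsks-1(ok1255) mutants and wild-type N2, each either fed on OP50 bacteria for 4 h or starved. All larvae came from eggs of worms grown at 20 °C and had first spent 24 h in M9 buffer without food, so feeding was begun from a starved state in every genotype. RagA, the GTPase encoded by raga-1, passes amino acid supply on to TORC1, and rsks-1 encodes the S6 kinase that TORC1 activates. Both alleles affect the whole animal. Whether the 3 libraries of a group stem from separate cultures is not stated in the labels, and p-values then reflect only the spread between these libraries, which may be technical.

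Library totals ran from 9929323 to 18539402 expected counts, and the 11 genes together took 0.111% to 0.567% of them. Levels are given as CPM (counts scaled to library size by TMM), and a gene was called changed at an adjusted p below 0.05 in edgeR's quasi-likelihood test over 14073 genes. The raga-1 transcript was at 0 CPM in all raga-1 libraries, and rsks-1 averaged 24.8 CPM in fed and 37.5 CPM in starved rsks-1 mutants, against 171 CPM in fed and 186 CPM in starved N2. Of 12 marker genes of intestine, body wall muscle, neurons and hypodermis, 11 had counts in every library and the collagen gene dpy-7 was at 0 in 1 library. Summed markers moved with the groups: those of muscle stood at 8387 to 8925 CPM in fed raga-1 and 6063 to 6298 CPM in fed N2, and those of intestine at 796 to 835 CPM in fed and 1361 to 1400 CPM in starved N2. Abundant genes carry these sums, and single markers differed. In muscle unc-54 and unc-15 were higher in fed raga-1 than in fed N2, while myo-3 averaged 868 against 906 CPM. In intestine ges-1 and ifb-2 were lower in fed than in starved N2, while elt-2 averaged 28.1 against 25.6 CPM and was not called. In RNA of whole larvae, fewer cells of a type and less RNA per cell cannot be told apart, and the part of tissue makeup in the results below was not tested.

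The hsf-1 transcript itself was nearly level. It stood at 43.4, 46.5 and 39.7 CPM in fed and 51.2, 46.5 and 46.8 CPM in starved raga-1 larvae. In rsks-1 larvae it stood at 41.7, 40.3 and 44.2 CPM when fed and 44.7, 41.9 and 40.7 CPM when starved. In N2 it stood at 42.6, 41.8 and 41.8 CPM when fed and 40.9, 43.9 and 45.7 CPM when starved. The lowest and highest of the 18 libraries were both of raga-1, and fed and starved libraries overlapped in all 3 genotypes. On feeding hsf-1 changed by a log2 of -0.05 ± 0.07 (SE) in N2 (adjusted p = 0.509) and -0.01 ± 0.07 in rsks-1 (adjusted p = 0.896). Both tests were made against a background in which 73.9% of all genes tested were called on feeding in N2 and 70.8% in rsks-1. In raga-1 hsf-1 fell by a log2 of 0.16 ± 0.06 on feeding (adjusted p = 0.021), where 62.4% of all genes were called. That call was lost with DESeq2 (adjusted p = 0.0533), without starved raga-1 replicate 1 (0.157) and without fed raga-1 replicate 3 (0.25). With scaling by library totals alone hsf-1 was called on feeding in N2 (-0.35) and rsks-1 (-0.21), where the medians of all genes were -0.37 and -0.22. The difference between the feeding responses of raga-1 and N2 was -0.10 ± 0.09 (adjusted p = 0.363). Starved raga-1 larvae had 1.10 times the hsf-1 level of starved N2 (adjusted p = 0.0484), a call that leaving out any single starved raga-1 library ended (adjusted p = 0.0508 to 0.272), as did leaving out starved N2 replicate 1 (0.265) or 2 (0.0902).

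The constitutive cytosolic chaperones rose steeply on feeding, by most in N2 and by least in raga-1. The hsp-1 transcript, which encodes the always-present HSC70, stood at 1914, 1842 and 1886 CPM in fed and 887, 928 and 884 CPM in starved raga-1 larvae. It stood at 2518, 2533 and 2482 CPM in fed and 530, 530 and 504 CPM in starved rsks-1 larvae, and at 3946, 4082 and 3994 CPM in fed and 384, 386 and 390 CPM in starved N2. No group overlapped another: fed libraries ran N2, rsks-1, raga-1 from high to low, and starved libraries ran raga-1, rsks-1, N2. Feeding raised hsp-1 by 2.09-fold in raga-1 (log2 1.06 ± 0.03), 4.82-fold in rsks-1 (2.27 ± 0.03) and 10.4-fold in N2 (3.37 ± 0.03; adjusted p = 6.1e-124). The rise was smaller than in N2 by a log2 of 2.31 ± 0.04 in raga-1 (adjusted p = 1.13e-89) and by 1.10 ± 0.04 in rsks-1 (adjusted p = 3.21e-53).

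A similar order held for the partners of HSP-1. HSP-110 is the nucleotide exchange factor that works with HSP70 to dissolve protein aggregates, and its transcript stood at 243, 226 and 232 CPM in fed and 113, 111 and 117 CPM in starved raga-1. It stood at 296, 302 and 293 CPM in fed and 70.6, 63.3 and 66.9 CPM in starved rsks-1, and at 524, 522 and 527 CPM in fed and 64.0, 66.3 and 64.5 CPM in starved N2. The starved rsks-1 and N2 libraries overlapped, while starved raga-1 stood clear above both. The folds on feeding were 2.05 in raga-1, 4.45 in rsks-1 and 8.07 in N2.

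DNJ-13 is a J-domain protein of the DNAJB class that delivers substrates to HSP70. Its transcript stood at 103.9, 103 and 106 CPM in fed and 68.6, 70.2 and 68.3 CPM in starved raga-1, at 145, 149 and 147 CPM in fed and 46.1, 49.7 and 49.1 CPM in starved rsks-1, and at 219, 220 and 213 CPM in fed and 30.4, 31.0 and 28.2 CPM in starved N2. Again all 6 groups were apart from each other, and the order of genotypes in starved larvae was the reverse of that in fed larvae. The folds on feeding were 1.51 in raga-1, 3.04 in rsks-1 and 7.28 in N2. Against N2 the response of dnj-13 was smaller by a log2 of 2.27 ± 0.07 in raga-1 (adjusted p = 2.68e-60) and by 1.26 ± 0.07 in rsks-1 (adjusted p = 3.61e-33).

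**Figure D1:**
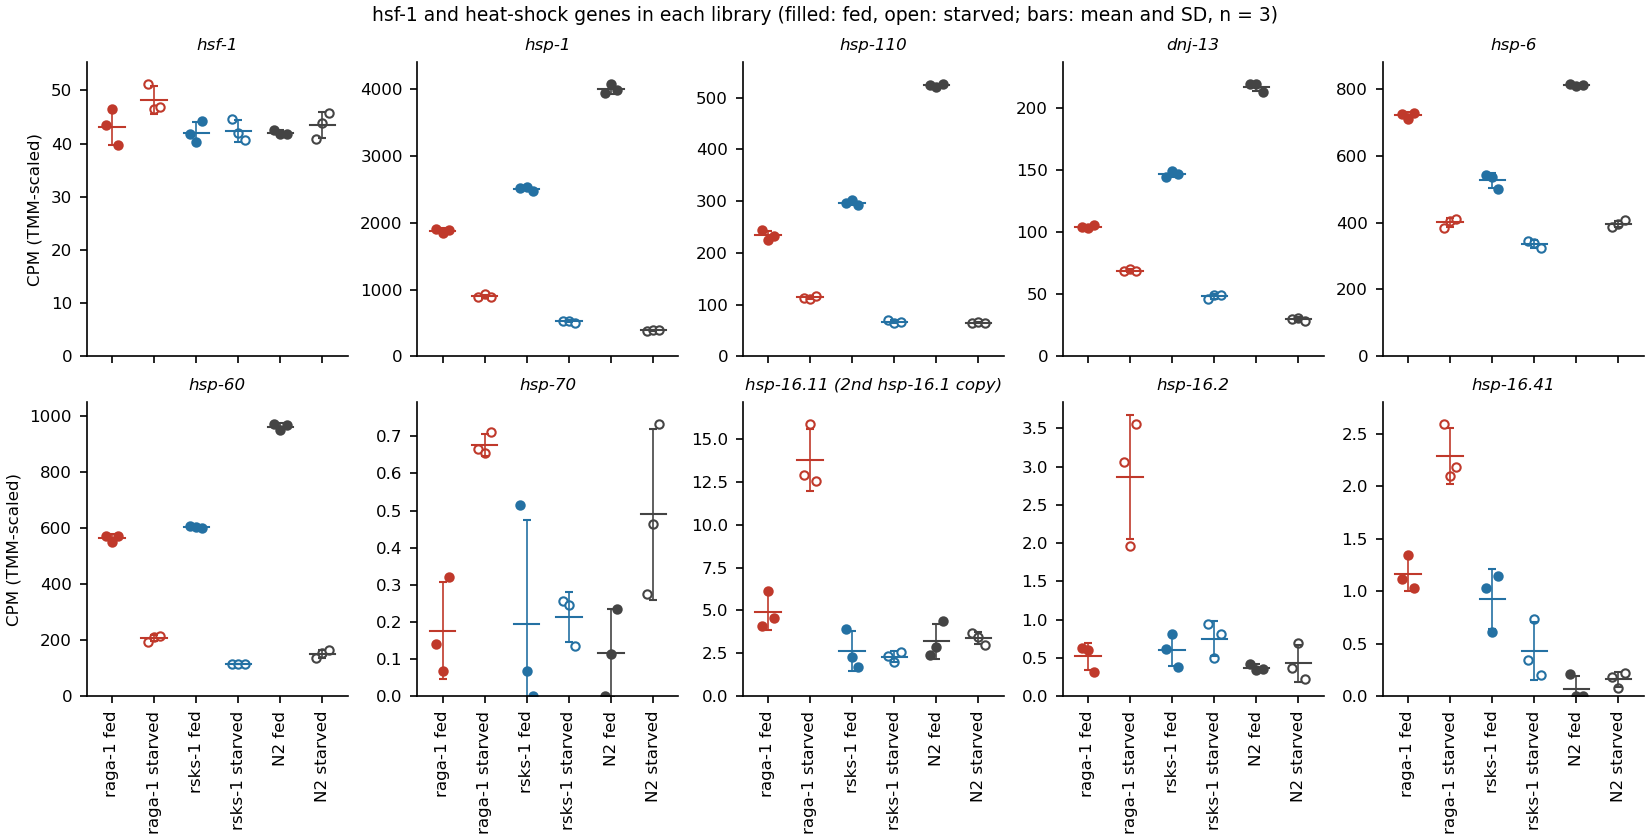
CPM of hsf-1 and the heat-shock genes in each of the 18 libraries, 1 panel per gene with its own axis from 0. Points are libraries (filled fed, open starved), lines and bars mean and SD of 3, with SD bars cut off at 0. hsp-1, hsp-110, dnj-13 and hsp-60 are highest in fed N2, hsf-1 lies between 39.7 and 51.2 CPM throughout, and the 3 hsp-16 genes shown are highest in starved raga-1.

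Counted over the 5 constitutive genes of cytosol and mitochondria (hsp-1, hsp-110, dnj-13, hsp-6 and hsp-60), 5 of 5 rose on feeding in raga-1, rsks-1 and N2 alike, where 29.4%, 35.7% and 36.5% of all genes tested rose in the same 3 comparisons. The feeding response was smaller than in N2 for 5 of 5 in raga-1 and for 5 of 5 in rsks-1, against 28.8% and 15.8% of all genes tested, with hsp-6 in raga-1 at 0.015 in the other direction under library totals alone. It was smaller in raga-1 than in rsks-1 for 4 of 5, against 25.3% of all genes, and larger for hsp-6, against 18.8%. These differences share the N2 or the raga-1 libraries with each other, so they are not separate evidence. All 5 genes were over the count minimum in all 18 libraries.

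The smaller rise in raga-1 was made up of a higher starved and a lower fed level. For these 3 cytosolic genes, starved raga-1 larvae exceeded starved N2 by a log2 of 1.22 ± 0.03 for hsp-1, 1.21 ± 0.05 for dnj-13 and 0.81 ± 0.04 for hsp-110. With hsp-60 (0.45 ± 0.04) and hsp-6 (0.02 ± 0.03, not called), 4 of the 5 constitutive genes were higher, against 27% of all genes tested. Under library totals alone hsp-6 was called as well, at 0.14 (adjusted p = 9.74e-05). Fed raga-1 larvae lay below fed N2 by a log2 of 1.09 ± 0.03, 1.06 ± 0.04 and 1.17 ± 0.035 for hsp-1, dnj-13 and hsp-110, in that order, and 5 of the 5 constitutive genes were lower, against 34.4% of all genes, though hsp-6 turned to 0.15 higher under library totals alone. In rsks-1 the fed deficits were 0.67 ± 0.03 for hsp-1, 0.56 ± 0.04 for dnj-13 and 0.82 ± 0.035 for hsp-110, and again 5 of 5 were lower, against 22.6% of all genes. The starved excess of rsks-1 was 0.43 ± 0.03 for hsp-1 and 0.70 ± 0.06 for dnj-13, and for hsp-110 the starved value was 0.04 ± 0.045 (adjusted p = 0.578). In all, 2 of the 5 were higher in starved rsks-1, against 15.1% of all genes, and 2 were lower, hsp-60 by 0.41 ± 0.04 and hsp-6 by 0.24 ± 0.03, against 11.9%.

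The 3 chaperones did not keep exact proportions. Per kb of transcript, the ratio of dnj-13 to hsp-1 was 0.0805 to 0.0835 in fed and 0.112 to 0.115 in starved raga-1, 0.0852 to 0.0878 in fed and 0.129 to 0.145 in starved rsks-1, and 0.0791 to 0.0825 in fed and 0.107 to 0.119 in starved N2. Relative to hsp-1, dnj-13 was thus lower in fed than in starved libraries of every genotype. The ratio of hsp-110 to hsp-1 was 0.0940 to 0.0975 in fed and 0.0921 to 0.102 in starved raga-1, and 0.0981 to 0.102 in fed and 0.127 to 0.132 in starved N2. In rsks-1 this ratio was 0.0901 to 0.0915 in fed and 0.0916 to 0.102 in starved libraries. Fed and starved ranges overlapped in raga-1, were apart by little in rsks-1 and were apart in N2. Such ratios are taken within a library and so do not depend on the scaling between libraries.

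Of the mitochondrial genes, hsp-60 rose more than hsp-6 in every genotype. HSP-60 is the chaperonin of the matrix, and its transcript stood at 573, 550 and 572 CPM in fed and 194, 213 and 213 CPM in starved raga-1. It stood at 608, 606 and 599 CPM in fed and 115, 114 and 114 CPM in starved rsks-1, and at 972, 949 and 967 CPM in fed and 135, 154 and 164 CPM in starved N2. No group overlapped another, and starved rsks-1 was the lowest. The folds on feeding were 2.73 in raga-1, 5.29 in rsks-1 and 6.36 in N2. The response of raga-1 was smaller than that of N2 by a log2 of 1.22 ± 0.055 (adjusted p = 1.48e-23), and that of rsks-1 by 0.27 ± 0.06 (adjusted p = 0.00028).

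HSP-6 is the mitochondrial HSP70. Its transcript stood at 726, 711 and 727 CPM in fed and 384, 406 and 412 CPM in starved raga-1, at 543, 536 and 500 CPM in fed and 346, 339 and 324 CPM in starved rsks-1, and at 815, 808 and 812 CPM in fed and 387, 395.2 and 407 CPM in starved N2. Starved raga-1 and N2 libraries overlapped, and rsks-1 was the lowest genotype in both states. Feeding raised hsp-6 by 1.80-fold in raga-1, 1.57-fold in rsks-1 and 2.05-fold in N2. The response of rsks-1 was smaller than that of N2 by a log2 of 0.39 ± 0.045 (adjusted p = 5.58e-13) and smaller than that of raga-1 by 0.20 ± 0.04 (adjusted p = 5.16e-05), so that hsp-6 was the one gene of the 10 tested whose response was called larger in raga-1 than in rsks-1. The difference between raga-1 and N2 was -0.19 ± 0.04 (adjusted p = 0.000151), a call lost in a fit of only the libraries compared (-0.09, adjusted p = 0.0893). With scaling by library totals alone that difference was 0.02 (adjusted p = 0.806), while the median of all genes in this comparison moved to 0.17, against -0.03 with TMM.

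The ratio of hsp-60 to hsp-6 per kb shows these unequal changes within each library. It was 0.897 to 0.915 in fed and 0.585 to 0.608 in starved raga-1, 1.30 to 1.39 in fed and 0.385 to 0.409 in starved rsks-1, and 1.36 to 1.38 in fed and 0.403 to 0.468 in starved N2. The 2 transcripts therefore changed places on feeding in N2 and rsks-1, where hsp-60 was the more abundant per kb in fed libraries, and kept their order in raga-1.

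**Figure D2:**
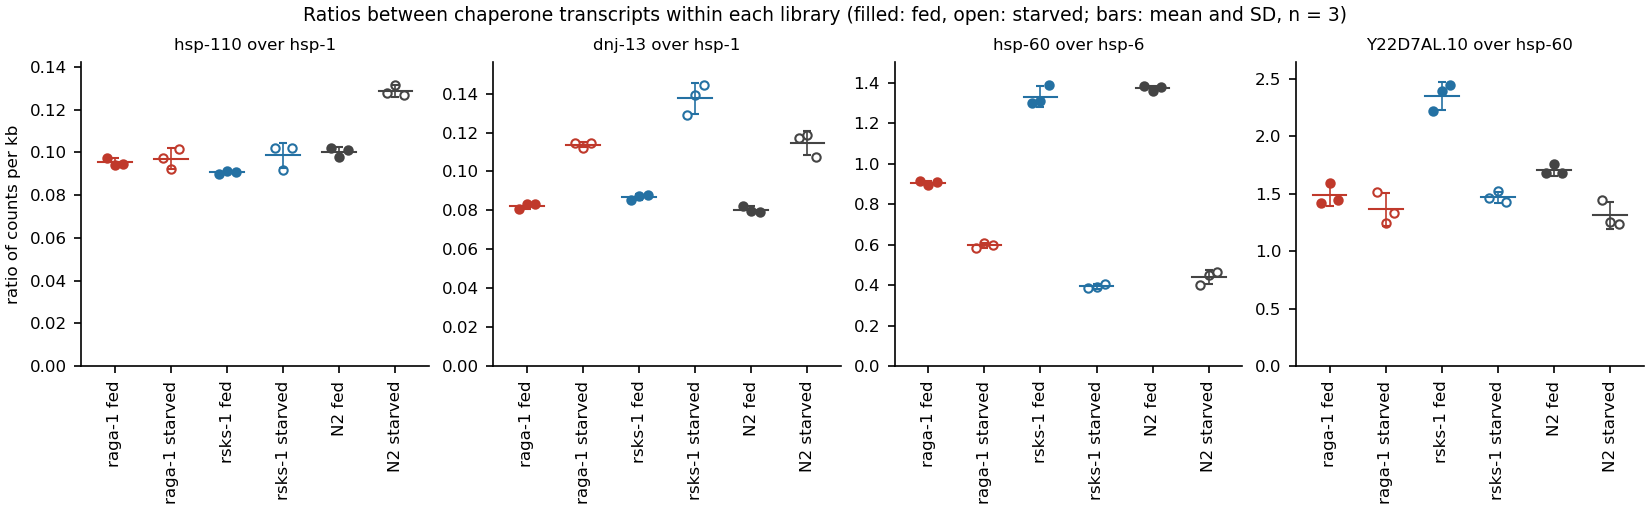
Ratio of counts per kb of 4 pairs of chaperone transcripts within each library, by group (filled fed, open starved; lines and bars mean and SD of 3). The ratio of hsp-60 to hsp-6 lies above 1 only in fed rsks-1 and fed N2, with fed raga-1 at 0.897 to 0.915.

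The mitochondrial co-chaperone Y22D7AL.10, the C. elegans HSP10 that caps the HSP-60 chamber, rose with hsp-60 in all 3 genotypes. It lies next to hsp-60 on chromosome III (WBcel235), on the opposite strand, with 812 bases between the starts of the 2 genes, as HSP60 and HSP10 genes also lie head to head in mammals. Feeding raised it by a log2 of 1.58 ± 0.04 in raga-1, 3.08 ± 0.04 in rsks-1 and 3.05 ± 0.04 in N2, so that rsks-1 differed from N2 by 0.03 ± 0.06 (adjusted p = 0.809). Per kb it exceeded hsp-60 in every library, with a ratio of 2.22 to 2.45 in fed and 1.43 to 1.52 in starved rsks-1, against 1.68 to 1.75 in fed and 1.24 to 1.45 in starved N2. Fed rsks-1 was apart from all other groups in this ratio.

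The hsp-16 genes, near-identical copies summed, followed another pattern, with their highest levels in starved raga-1 larvae. Here that name covers hsp-16.1, hsp-16.11, hsp-16.2, hsp-16.41, hsp-16.48 and hsp-16.49. RefSeq also names F08H9.3 and F08H9.4 as hsp-16.20 and hsp-16.21, and these are given below with the other small heat-shock proteins. F08H9.4 too was highest in starved raga-1. F08H9.3 averaged 2.07 CPM there, against 5.95 CPM in starved N2 and 5.12 CPM in starved rsks-1. Reads of several of the hsp-16 genes are hard to place, since hsp-16.1 and hsp-16.11 are near-identical copies, as are hsp-16.48 and hsp-16.49. Each hsp-16 gene in this sense lies head to head with a different gene of the family, not with its own copy. F08H9.3 and F08H9.4 both lie on the minus strand. On chromosome V (WBcel235), hsp-16.1, hsp-16.48, hsp-16.49 and hsp-16.11 lie in a row at positions 9087293 to 9090604 in 2 divergent pairs, with 348 and 310 bases between the starts of each pair. At positions 1804334 to 1805875 of the same chromosome, hsp-16.2 and hsp-16.41 form another such pair with 220 bases between them. The inducible HSP70 genes F44E5.4 and F44E5.5 on chromosome II, which heat-shock work in C. elegans often uses beside hsp-70, are arranged likewise with 350 bases between them.

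**Figure D3:**
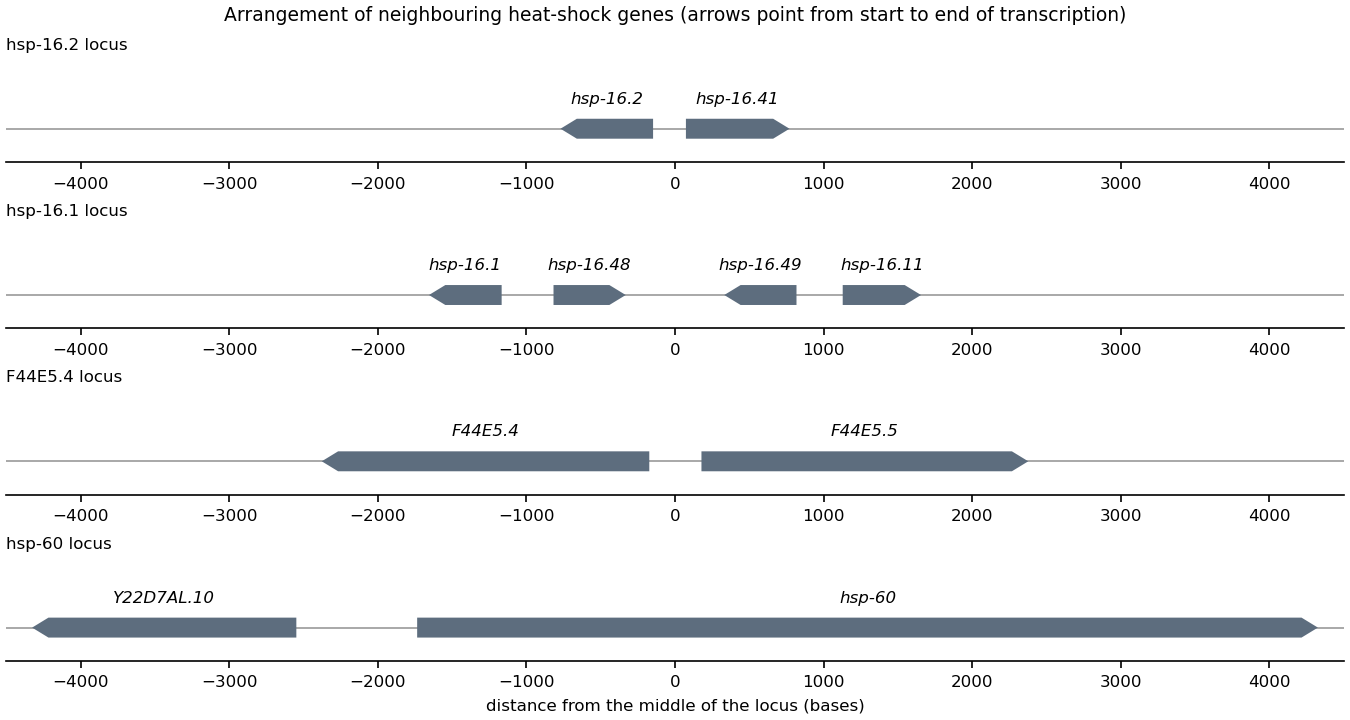
Annotated positions of neighbouring heat-shock genes, drawn to scale as distance in bases from the middle of each locus, with arrows from start to end of transcription. Each hsp-16 gene drawn, F44E5.4 and F44E5.5, and Y22D7AL.10 and hsp-60 start next to a gene on the opposite strand, with 220 to 812 bases between the pair.

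The authors' counting shared reads between such copies in ways that differed from pair to pair and, above all for F44E5.4 and F44E5.5, from library to library. The first hsp-16.1 copy was at 0 in 16 of 18 libraries and at 9.32 counts in 1 starved and 7.62 counts in 1 fed rsks-1 library, with the rest assigned to hsp-16.11, so hsp-16.1 was too low to test. The values of hsp-16.48 and hsp-16.49 were equal in all 18 libraries. F44E5.4 took 0% to 100% of the sum of F44E5.4 and F44E5.5, and its share spanned 0% to 58.6% within fed N2 alone. For these pairs the sums are reported, and the split between copies carries no information on either gene.

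**Figure D4:**
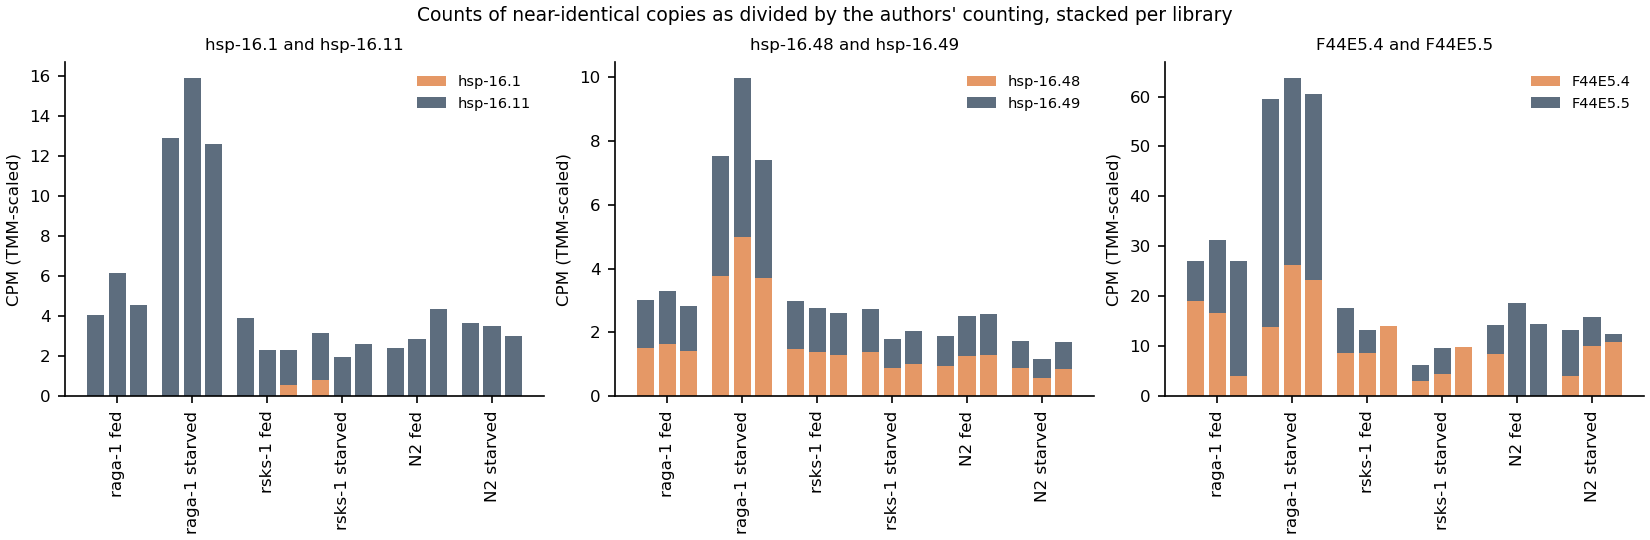
CPM of 3 pairs of near-identical genes in each of the 18 libraries, stacked as the deposited counts divide them. The sums are highest in the 3 starved raga-1 libraries for each pair, while the split between F44E5.4 and F44E5.5 varies among libraries of one group.

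The count minimum treated the rare genes unequally. hsp-16.11 was over it in all 18 libraries. hsp-16.2 was over it in every library of a group only in starved raga-1, and hsp-16.41 only in fed and starved raga-1. hsp-70 was over it in 3 libraries in all. Genes kept through one high group had to differ, so no count over the inducible genes is used as support below. For hsp-16.2, hsp-16.41 and hsp-70 the adjusted p-values are therefore those of edgeR's test with no filter on low counts, a choice made after their values were seen, and values for a left-out library are those with the filter.

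The small heat-shock proteins of the HSP-16 family bind unfolding proteins without using ATP. The sum of hsp-16.1 and hsp-16.11 was 4.06 to 6.12 CPM in fed and 12.57 to 15.9 CPM in starved raga-1, 2.29 to 3.92 CPM in fed and 1.97 to 3.17 CPM in starved rsks-1, and 2.41 to 4.36 CPM in fed and 3.01 to 3.66 CPM in starved N2. Starved raga-1 stood apart from all other groups, which lay close together or overlapped. In starved larvae the sum was 4.07-fold higher in raga-1 than in N2 (log2 2.03 ± 0.18, adjusted p = 6.84e-20). It fell by a log2 of 1.48 ± 0.16 on feeding in raga-1, whereas the values were 0.11 ± 0.24 in rsks-1 (adjusted p = 0.685) and -0.08 ± 0.24 in N2 (adjusted p = 0.773). The response of raga-1 differed from that of N2 by -1.40 ± 0.30 (adjusted p = 2.61e-05). In fed raga-1 and fed N2 hsp-16.1 was at 0, so hsp-16.11 held the whole sum. It was still 1.55-fold higher in fed raga-1 than in fed N2 (adjusted p = 0.0111). That call was lost without fed N2 replicate 1 (0.115), fed N2 replicate 2 (0.0515) or fed raga-1 replicate 2 (0.116).

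The hsp-16.48 and hsp-16.49 sum was 2.83 to 3.30 CPM in fed and 7.40 to 9.97 CPM in starved raga-1, 2.59 to 2.99 CPM in fed and 1.79 to 2.74 CPM in starved rsks-1, and 1.89 to 2.59 CPM in fed and 1.16 to 1.74 CPM in starved N2. It too was highest in starved raga-1, by 5.40-fold over starved N2 (adjusted p = 1.7e-18), and fell by a log2 of 1.44 ± 0.19 on feeding in raga-1 (adjusted p = 5.5e-11). In fed larvae the value for raga-1 minus N2 was 0.39 ± 0.26 (adjusted p = 0.183).

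The hsp-16.2 gene, whose promoter drives the heat-stress reporters most used in C. elegans, stood at 0.631, 0.606 and 0.321 CPM in fed and 3.06, 1.97 and 3.56 CPM in starved raga-1. It stood at 0.618, 0.810 and 0.381 CPM in fed and 0.942, 0.493 and 0.817 CPM in starved rsks-1, and at 0.420, 0.343 and 0.353 CPM in fed and 0.366, 0.695 and 0.220 CPM in starved N2. The 3 starved raga-1 libraries were above the other 15, which overlapped each other. These levels rest on few reads, with 151 counts over the 3 starved raga-1 libraries and 10 over the 3 fed N2 libraries. Starved raga-1 exceeded starved N2 by 6.64-fold (log2 2.73 ± 0.42, adjusted p = 8.64e-10 with no filter), and in raga-1 feeding lowered hsp-16.2 to 0.181 of its starved level (adjusted p = 2.4e-09). The responses of raga-1 and N2 differed by a log2 of -2.28 ± 0.83 (adjusted p = 0.0194), a call lost without fed N2 replicate 1 (0.0566).

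Its divergent neighbour hsp-16.41 was the one gene of the family that was higher in both fed mutants. It stood at 1.12, 1.35 and 1.03 CPM in fed and 2.59, 2.10 and 2.18 CPM in starved raga-1, at 1.03, 0.608 and 1.14 CPM in fed and 0.343, 0.740 and 0.204 CPM in starved rsks-1, and at 0.210, 0 and 0 CPM in fed and 0.183, 0.0773 and 0.220 CPM in starved N2. All raga-1 and all fed rsks-1 libraries were above all N2 libraries. Only 2 counts fell on it in fed N2, against 52 in fed raga-1 and 34 in fed rsks-1, which makes ratios of 15.6 (95% counting interval 4.10 to 132) and 12.097 (3.10 to 103.9) once the library sizes are allowed for, and edgeR called both (adjusted p = 3.38e-06 and 0.000197 with no filter). In starved larvae raga-1 exceeded N2 by 13.6-fold (log2 3.76 ± 0.53, adjusted p = 1.89e-11), and rsks-1 minus N2 was 1.42 ± 0.72 (adjusted p = 0.182). On feeding hsp-16.41 fell in raga-1 by a log2 of 0.97 ± 0.35 (adjusted p = 0.0201), a call lost without starved raga-1 replicate 1 (0.0558) or fed raga-1 replicate 3 (0.0584). In rsks-1 its value on feeding was 1.02 ± 0.50 (adjusted p = 0.078), which passed the threshold without starved rsks-1 replicate 2 (0.0136) or fed rsks-1 replicate 2 (0.0338), and the responses of raga-1 and rsks-1 differed by -1.99 ± 0.62 (adjusted p = 0.00588).

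The hsp-70 gene encodes the heat-inducible HSP70 and was at the edge of detection, with 0 to 0.733 CPM. It had 8 counts in fed and 35 in starved raga-1, 6 in fed and 9 in starved rsks-1, and 3 in fed and 19 in starved N2, each over 3 libraries. All starved raga-1 libraries were above all fed raga-1 libraries, and all starved N2 above all fed N2, while rsks-1 overlapped. In N2 the fed level was 4.52-fold lower than the starved level, with a 95% counting interval of 1.33 to 23.9, and edgeR did not call the fall with no filter (adjusted p = 0.0566), nor did DESeq2 (0.0581). With the filter edgeR called it (adjusted p = 0.036), a call lost without starved N2 replicate 2 (0.0514) or 3 (0.162) and without fed N2 replicate 1 (0.176) or 2 (0.0795). In raga-1 hsp-70 fell to 0.273 of its starved level (adjusted p = 0.0221), a call lost without fed raga-1 replicate 2 (0.0662). Starved raga-1 minus starved N2 was 0.43 ± 0.55 (adjusted p = 0.642), so no excess was called for hsp-70 on these few counts. In the same comparison the lowest log2 value of the hsp-16 genes was 2.03 ± 0.18, for the hsp-16.1 and hsp-16.11 sum.

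The sum of the inducible HSP70 genes F44E5.4 and F44E5.5 was likewise highest in starved raga-1 and fell there on feeding. It stood at 27.0 to 31.2 CPM in fed and 59.6 to 63.7 CPM in starved raga-1, at 13.2 to 17.6 CPM in fed and 6.34 to 9.87 CPM in starved rsks-1, and at 14.3 to 18.6 CPM in fed and 12.4 to 15.8 CPM in starved N2. Both raga-1 groups were above every other library, and starved rsks-1 was below all. The sum in raga-1 exceeded that in N2 by 4.43-fold when starved (adjusted p = 1.17e-31) and by 1.81-fold when fed (adjusted p = 1.93e-10). On feeding the sum fell in raga-1 to 0.464 of its starved level, rose 1.67-fold in rsks-1 (adjusted p = 2.31e-07) and had a log2 value of 0.19 ± 0.12 in N2 (adjusted p = 0.165).

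Over the 6 hsp-16 genes together, the level was 8.74 to 11.4 CPM in fed and 25.7 to 29.9 CPM in starved raga-1, 6.41 to 8.55 CPM in fed and 4.99 to 7.19 CPM in starved rsks-1, and 4.93 to 7.30 CPM in fed and 5.13 to 5.95 CPM in starved N2. The 3 starved raga-1 libraries were above the other 15, and fed raga-1 was above both N2 groups. F08H9.3 and F08H9.4 are not in this sum.

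**Figure D5:**
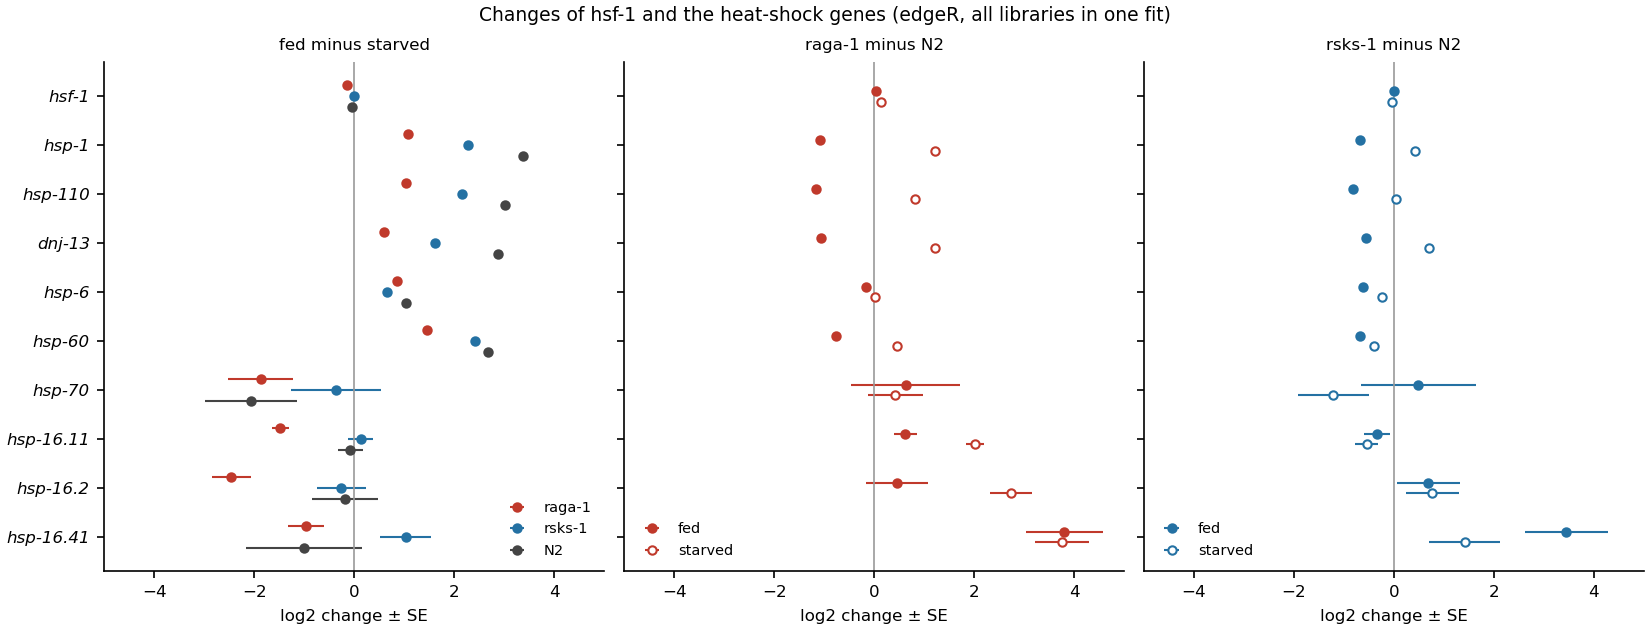
Log2 changes with SE from the fit to all 18 libraries, for feeding in each genotype (left) and for each mutant against N2 in fed and starved larvae (middle and right). The constitutive genes lie right of 0 on feeding, least so in raga-1 except for hsp-6, which is lowest in rsks-1. They lie left of 0 in fed raga-1 and right of it in starved raga-1 (hsp-6 at 0.02), while the hsp-16 genes lie right of 0 in starved raga-1. hsp-70, hsp-16.2 and hsp-16.41 rest on few counts.

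Set in order by counts per kb, hsp-1 led in all 6 groups, at 907 in fed and 434 in starved raga-1, 1211 in fed and 251 in starved rsks-1, and 1933 in fed and 187 in starved N2, all in CPM per kb. In fed N2 and fed rsks-1 it was followed by hsp-60, hsp-6, hsp-110 and dnj-13. In fed raga-1 and in starved N2, hsp-6 came before hsp-60. In starved raga-1 and starved rsks-1, dnj-13 also came before hsp-110, at 49.4 against 42.1 CPM per kb in raga-1 and 34.6 against 24.8 in rsks-1. None of these neighbours overlapped. hsf-1 came sixth at 16.98 to 17.6 CPM per kb in 5 groups, and seventh at 19.4 in starved raga-1. There hsp-16.11 stood above it at 28.9 CPM per kb, a value that holds all reads of the hsp-16.1 and hsp-16.11 pair in that group. Below these, hsp-16.2 overlapped hsp-16.41 in starved raga-1 and in both rsks-1 groups, and hsp-16.41 overlapped hsp-70 in both N2 groups.

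Other genes of the same pathways were taken from lists of known members. The HSF-1 partner list held 4 genes, of which hsf-2 was too rare to test. On feeding in N2, 1 of the 3 tested rose, where 36.5% of all genes did. It was hsb-1, the HSF-1 binding protein that restrains it. It rose by a log2 of 0.32 ± 0.10 in N2 (adjusted p = 0.00231) and 0.26 ± 0.09 in rsks-1 (adjusted p = 0.0062), with 0.18 ± 0.09 in raga-1 (adjusted p = 0.0722). In fed larvae hsb-1 was lower in raga-1 than in N2 by 0.24 ± 0.10 and higher in rsks-1 than in N2 by 0.24 ± 0.10. Under library totals the value for raga-1 turned to 0.08 (adjusted p = 0.465), with the median of all genes at 0.33.

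The remaining cytosolic HSP70 and HSP90 machinery moved with hsp-1. Of 16 genes, 13 rose, 1 fell and 2 were not called on feeding in N2, with a median log2 of 1.42 against -0.07 over all genes. In rsks-1, 12 rose and 1 fell (median 1.05 against -0.03), and in raga-1, 12 rose and 1 fell (median 0.40 against -0.05). Of all genes tested, 36.5% rose in N2, 35.7% in rsks-1 and 29.4% in raga-1, and 37.4%, 35.2% and 32.9% fell, in that order. The list counts F44E5.4 and F44E5.5 as 2 genes although their reads are not separable, and the 1 faller in raga-1 was F44E5.5. The log2 response was lower in raga-1 than in N2 for 14 of 16, against 28.8% of all genes. F44E5.5 is among them through a fall in raga-1 beside a rise in N2 that was not called. Its split from F44E5.4 carries no information. The genes with the largest rises in N2 were the co-chaperones of HSP90: sti-1, which links HSP70 to HSP90, the p23 gene daf-41, the immunophilin fkb-6 and the ATPase activator ahsa-1. They rose by a log2 of 2.81, 2.68, 2.66 and 2.13 in N2, by 1.84, 1.99, 1.46 and 1.22 in rsks-1, and by 0.80, 1.11, 0.46 and 0.72 in raga-1, in that order of genes. The HSP90 gene daf-21, chosen after its values were seen, averaged less than hsp-1 in fed and more in starved libraries per kb. The ratio of hsp-1 to daf-21 was 1.18 to 1.20 in fed and 0.856 to 0.889 in starved raga-1, 1.05 to 1.06 in fed and 0.477 to 0.503 in starved rsks-1, and 1.29 to 1.32 in fed and 0.491 to 0.502 in starved N2. The 1 gene that fell in N2 was chn-1, the CHIP ubiquitin ligase that passes chaperone-bound proteins to degradation, by a log2 of 0.61 ± 0.10, and it was also picked after its values were seen.

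Other small heat-shock proteins were mixed. Of 12 tested, 2 rose, 6 fell and 4 were not called on feeding in N2, with a median log2 of -0.54 against -0.07 over all genes. In raga-1 1 rose and 8 fell, and in rsks-1 2 rose and 7 fell. Of all genes tested, 36.5% rose and 37.4% fell in N2, 29.4% rose and 32.9% fell in raga-1, and 35.7% rose and 35.2% fell in rsks-1. The list counts hsp-16.48 and hsp-16.49 as 2 genes although their values are equal. F08H9.4 was at 1.90 to 2.06 CPM in starved raga-1 and at 0.549 CPM or below in every other group. F08H9.3 was at 1.77 to 6.84 CPM in starved and 0 to 0.911 CPM in fed libraries, and hsp-12.6 was at 0 in fed N2 and fed rsks-1. Genes kept by the count minimum through starved groups were bound towards a fall, so these counts are only a description. hsp-12.3 stood at 1.33, 1.41 and 1.41 CPM in fed and 5.92, 4.79 and 4.98 CPM in starved raga-1, at 1.34, 0.540 and 0.839 CPM in fed and 9.59, 12.08 and 10.2 CPM in starved rsks-1, and at 0.210, 0.114 and 0.235 CPM in fed and 5.77, 5.80 and 6.97 CPM in starved N2. Fed and starved libraries were far apart in each genotype. The fall was smaller in raga-1 than in N2 by a log2 of 3.08 ± 0.56 (adjusted p = 1.08e-06). That difference rests on 62 counts in fed raga-1 against 5 in fed N2, each over 3 libraries, and is given as a description.

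F08H9.3 fell likewise, with a log2 change of -1.61 ± 0.34 in raga-1, -4.55 ± 0.40 in rsks-1 and -4.68 ± 0.43 in N2, and its response in raga-1 differed from N2 by 3.07 ± 0.66. Its fed counts were few, with 30 in raga-1, 8 in rsks-1 and 6 in N2, each over 3 libraries. sip-1 fell with -2.49 ± 0.26 in raga-1, -2.71 ± 0.24 in rsks-1 and -2.40 ± 0.28 in N2, with a difference between raga-1 and N2 of -0.095 ± 0.415 (adjusted p = 0.871). hsp-12.6, a target of the insulin-pathway factor DAF-16, had 0 counts in fed and 35 in starved rsks-1, and 0 in fed and 17 in starved N2, each over 3 libraries. In raga-1 hsp-12.6 had 7 counts in fed and 7 in starved libraries and was not called on feeding (adjusted p = 0.877). The 2 genes that rose in N2 were hsp-17 and hsp-25, named after their values were seen, by a log2 of 2.25 ± 0.08 and 0.55 ± 0.045. In raga-1 hsp-17 rose by 0.64 ± 0.06, from 41.8 CPM in starved larvae against 13.1 CPM in starved N2, and hsp-25 was at -0.06 ± 0.04 (adjusted p = 0.209). In rsks-1 hsp-17 averaged 71.9 CPM fed and 21.4 CPM starved, and hsp-25 145 and 121 CPM.

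Among 11 other mitochondrial chaperones, proteases and stress regulators, 8 rose and 3 fell on feeding in N2 (median log2 0.95 against -0.07 over all genes). In raga-1 8 rose and 2 fell, and in rsks-1 8 rose and 2 fell. The shares of all genes that rose were 36.5% in N2, 29.4% in raga-1 and 35.7% in rsks-1. The shares that fell were 37.4%, 32.9% and 35.2%, in that order. After Y22D7AL.10 the largest rises in N2 were of the GrpE-type exchange factor C34C12.8 (2.07 ± 0.07), the mitochondrial HSP90 hsp-75 (1.67 ± 0.05) and the Lon protease lonp-1 (1.51 ± 0.06). In raga-1 the same 3 rose by 1.36 ± 0.07, 0.79 ± 0.05 and 0.65 ± 0.05. The 3 that fell in N2, named after their values were seen, were regulators of the mitochondrial unfolded protein response: the transcription factors atfs-1 (-0.15 ± 0.05) and dve-1 (-0.52 ± 0.08) and the peptide transporter haf-1 (-0.69 ± 0.15). Another regulator of that response, ubl-5, rose by a log2 of 0.95 ± 0.17 in N2, 0.67 ± 0.15 in raga-1 and 0.74 ± 0.15 in rsks-1. The response was smaller in raga-1 than in N2 for 6 of 11, against 28.8% of all genes, and smaller in rsks-1 than in N2 for 1 of 11, against 15.8%, which was lonp-1 (-0.54 ± 0.08).

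Genes whose pattern was most like that of hsf-1 or hsp-1 were sought among 5539 genes by Pearson's r of log2 CPM over the 18 libraries. These libraries fall into 6 groups and so are not independent. Candidates had names of letters, a hyphen and a number, so genes with only a clone name were left out. For hsp-1 the 3 closest were spl-1 (r = 0.995), unc-52 (0.995) and cyn-7 (0.995). cyn-7, a cyclophilin, averaged 606 ± 4.91 CPM in fed and 261 ± 4.56 CPM in starved raga-1, 945 ± 29.3 CPM in fed and 184 ± 9.15 CPM in starved rsks-1, and 1278 ± 17.9 CPM in fed and 124 ± 6.57 CPM in starved N2 (SD, n = 3). For hsf-1, whose level varied little, the 3 closest were efhd-1 (r = 0.750), nud-2 (0.745) and lact-3 (0.735). efhd-1 averaged 49.7 ± 3.11 CPM in fed and 84.2 ± 3.87 CPM in starved raga-1, against 31.0 ± 3.44 CPM in fed and 45.4 ± 2.45 CPM in starved N2.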

How the data were processed

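RNA of whole L1 larvae was measured in 18 libraries (6 groups of 3). The deposited gene and isoform tables hold RSEM expected counts, estimated by the authors and not scaled to depth; per the submitters' processing notes STAR, RSEM and DESeq2 were used, on a build named WBcel269. Neither versions nor strandedness is stated there or in the labels. RSEM divides reads among near-identical copies, so sums of copies are given beside single genes. Expected counts were rounded (0.962% of gene values were not whole). Genes were kept by filterByExpr (minimum count 10). The test was edgeR 4.0.16's robust quasi-likelihood test in R 4.3.3 after TMM scaling, with 1 mean per group over all libraries, Benjamini-Hochberg adjustment over 14073 genes and a threshold of 0.05. The SE is the size of the log2 change over the square root of F. Groups with 1 to 3 counts are given as ratios with exact 95% counting intervals, which cover counting error only. Lengths are those of the longest annotated transcript in WBcel235. Python 3.11.15 and matplotlib 3.10.9 made tables and figures, and the test was tried on simulated data.

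The members and gene lists were chosen with earlier results of these data known. Named genes are all members, their near-identical copies, up to 4 genes of each list with the largest called change on feeding in N2, and the 3 genes most like hsf-1 or hsp-1 (at least 10 CPM on average, prior count 2). Genes with only a clone name were not candidates for likeness. Alternatives were relative log expression factors, library totals, DESeq2 1.42.0, a replicate block, no filter, fits to the compared libraries only, each library left out, isoform sums, copies summed and, chosen after seeing the data, copies summed with hsp-70 kept apart. No library was left out, and promoter and protein sequences were not used here.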

Additional observations from a re-analysis of the deposited data

Results flagged for a closer look

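The feeding responses below differed between genotypes by a test of the difference itself (edgeR, adjusted p below 0.05 over all genes). The comparisons share libraries, so they are not separate results. Of all genes tested, 28.8% had a lower response in raga-1 than in N2 and 15.8% in rsks-1 than in N2, while 25.3% were lower and 18.8% higher in raga-1 than in rsks-1. hsp-16.2 and hsp-16.41 were over the count minimum in every library of a group only in raga-1 groups, so their values are given as a description. hsp-16.11 shares its reads with hsp-16.1, and the sum of the 2 gave -1.40 for raga-1 minus N2 and -1.59 for raga-1 minus rsks-1.

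For raga-1 minus N2, the feeding response was lower for hsp-1 (log2 -2.31), dnj-13 (-2.27), hsp-110 (-1.98), hsp-60 (-1.22) and hsp-6 (-0.19), and also for hsp-16.2 (-2.28) and hsp-16.11 (-1.40). In the first 5 genes this was a smaller rise. For the 2 small heat-shock genes it was a fall in raga-1 beside values near 0 in N2.

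For rsks-1 minus N2, the response was lower for dnj-13 (-1.26), hsp-1 (-1.10), hsp-110 (-0.86), hsp-6 (-0.39) and hsp-60 (-0.27). Here 5 of the 5 were smaller rises in rsks-1.

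For raga-1 minus rsks-1, the response was lower for hsp-16.2 (-2.20), hsp-16.41 (-1.99), hsp-16.11 (-1.61), hsp-1 (-1.20), hsp-110 (-1.12), dnj-13 (-1.005) and hsp-60 (-0.95), and higher for hsp-6 (0.20).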

How the results depend on the processing

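For hsp-1, hsp-110, dnj-13 and hsp-60, 672 of 672 results under the alternatives kept their direction and call. Over all members 1616 of 1660 did, 28 lost a call, 11 gained one and 5 reversed. Depth limits hsp-70, hsp-16.2 and hsp-16.41, where a few reads decide a value, and near-identical copies limit hsp-16.1.

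With library totals alone, hsp-6 reversed in fed raga-1 against fed N2 (0.15) and in the difference of those responses (0.015), as did hsb-1 in fed raga-1 against fed N2 (0.082). The same scaling moved the median of all genes to -0.37 for feeding in N2, -0.22 for feeding in rsks-1 and 0.33 for fed raga-1 minus fed N2. It gave hsf-1 calls in these 3 comparisons (-0.35, -0.21 and 0.36), each close to that median. It called 4 members higher in fed raga-1 than in fed N2 (2 with TMM), 2 lower on feeding in N2 (1 with TMM) and 1 lower on feeding in rsks-1 (0 with TMM).

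The 1 member lower on feeding in N2, hsp-70, was no longer called with DESeq2, no filter or copies summed, and too rare to be tested with only the libraries compared (0 each). With hsp-70, F44E5.4 and F44E5.5 summed, the value named hsp-70 turned to 0.15 for feeding in N2, 0.73 for feeding in rsks-1 and -1.26 for raga-1 minus N2 in response, which is the sum's own construction, since the F44E5 pair outnumbers hsp-70. The count of members with a larger response in rsks-1 than in N2 became 1 for the same reason. Summing F44E5.4 with F44E5.5 alone gave -1.29 for the difference of responses of raga-1 and N2, of opposite sign to F44E5.4 by itself (0.82). The count higher in fed rsks-1 became 0 with only the libraries compared, where hsp-16.41 was too rare to be tested.

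With each library left out in turn, members higher in fed raga-1 numbered 1 to 2, members lower on feeding in N2 0 to 1 and in raga-1 3 to 5. The cause of these losses was not tested.

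Replicate numbers did not pair libraries: 0 of 45 same-numbered pairs correlated above 0.1 (r = -0.046 to 0.033). A replicate block left the count of members higher on feeding in N2 at 5 and in starved raga-1 minus N2 at 8, and moved no call of a member.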
